A study of Homo sapiens with 145 samples.

Results

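Etoposide at 3 µM was compared directly with etoposide at 0.3 µM, a 10-fold lower dose, in HT-1080 cells after 24 h of exposure. HT-1080 is an established human fibrosarcoma line with fibroblast-like cells. The comparison was chosen by sample title, and titles with replicate number 2 were left out, so that 10 of the 145 arrays of the series entered it: 5 at 3 µM and 5 at 0.3 µM, numbered 1, 3, 4, 5 and 6 in each group. Etoposide at 1 µM (5 replicates) and the dimethyl sulfoxide (DMSO) vehicle (5 replicates, dose 0) were used to place the step between the 2 doses. All groups shared the DMSO solvent and the same line, and the labels name no genetic change in the cells. The cells grew in 24-well plates, and nothing in the labels says that the numbers stand for separate cultures, so p-values measure the spread between these samples, which may be technical.

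Etoposide is a topoisomerase II poison: it holds the enzyme on DNA with the strands cut, and the breaks activate damage kinases and p53. In cells with working p53, such as HT-1080, p53 raises the CDK inhibitor p21 (CDKN1A), and cell cycle genes are then repressed through the retinoblastoma family and the DREAM complex. Genes of DNA replication peak at the G1/S border under E2F factors, and genes of mitosis peak in G2/M under the MuvB complex with B-MYB and FOXM1. The step asks what the higher dose adds to, or takes back from, the response already present at 0.3 µM.

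The values are log2 probe set levels on perfect-match arrays, which measure a stretch near the 3' end of a transcript. A level of 4 was taken as the lower limit of a measured signal. Calls required a fold change of at least 1.5, a mean of at least 4 in either group, and an adjusted p in limma (Benjamini-Hochberg over all 11714 genes tested) under 0.05. Array medians were 3.51 to 3.58 at 3 µM and 3.54 to 3.56 at 0.3 µM, and upper quartiles were 6.56 to 6.61 at 3 µM and 6.58 to 6.60 at 0.3 µM. In bulk RNA, fewer cells in a phase of the cycle and less RNA per cell cannot be told apart.

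Libraries that stood apart were of 2 kinds. The number 2 array at 3 µM, left out here, changed from its vehicle like quercetin at 100 µM (r = 0.90 across genes, against 0.37 to 0.44 for the other 3 µM arrays). It resembled the other 3 µM arrays less (r = 0.30, against 0.80 to 0.91 among them). Number 3 was kept. Its step correlated least with the mean step of the others (r = 0.51, against 0.76 to 0.82), and its 0.3 µM array carries the suffix nf, which the labels do not explain. These correlations are across genes, which are not independent replicates.

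At 3 µM, 510 of the 11714 genes (4.35%) changed against 0.3 µM: 171 were higher (1.46%) and 339 were lower (2.89%). The step lowered genes of mitosis as a group, lowered many of the longest genes, and had its largest rises in SPINK6, CSTA and AKR1B10. Of 35 listed p53 targets, 2 passed the 1.5-fold limit in the step, and 21 were higher by adjusted p with no fold limit. Of the 510, 490 moved the same way in all 5 numbered pairs, and in 273 the arrays of the 2 doses did not overlap. In the whole table, arrays did not overlap for 380 genes with 3 µM higher (3.24%) and for 615 with 3 µM lower (5.25%). With number 2 kept in every etoposide group the step had 395 calls, 369 of them shared with the 510, and the rises dropped to 107. Without number 3 it had 599, with 218 rises and 381 falls.

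The first change, 0.3 µM against vehicle, had 596 calls (5.09%), 379 higher (3.24%) and 217 lower (1.85%). It shares its 0.3 µM arrays with the step, which therefore enter the 2 differences with opposite signs. Of the step's 510 genes, 440 were also called at 3 µM against vehicle in the same direction, 156 higher and 284 lower. Only 57 of those 156 and 34 of those 284 had already been called at 0.3 µM. Going against the direction called at 0.3 µM, 16 genes went back, and 1 of them, NLGN1, is also among the 284. Another 55 were called in neither comparison with vehicle. At 3 µM against vehicle, 1611 genes were called (13.8%), 757 higher (6.46%) and 854 lower (7.29%). Split at 1 µM, the step had 64 calls between 1 and 0.3 µM (0.546%), 40 of them higher, and 115 between 3 and 1 µM (0.982%), 87 of them lower.

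**Figure D1:**
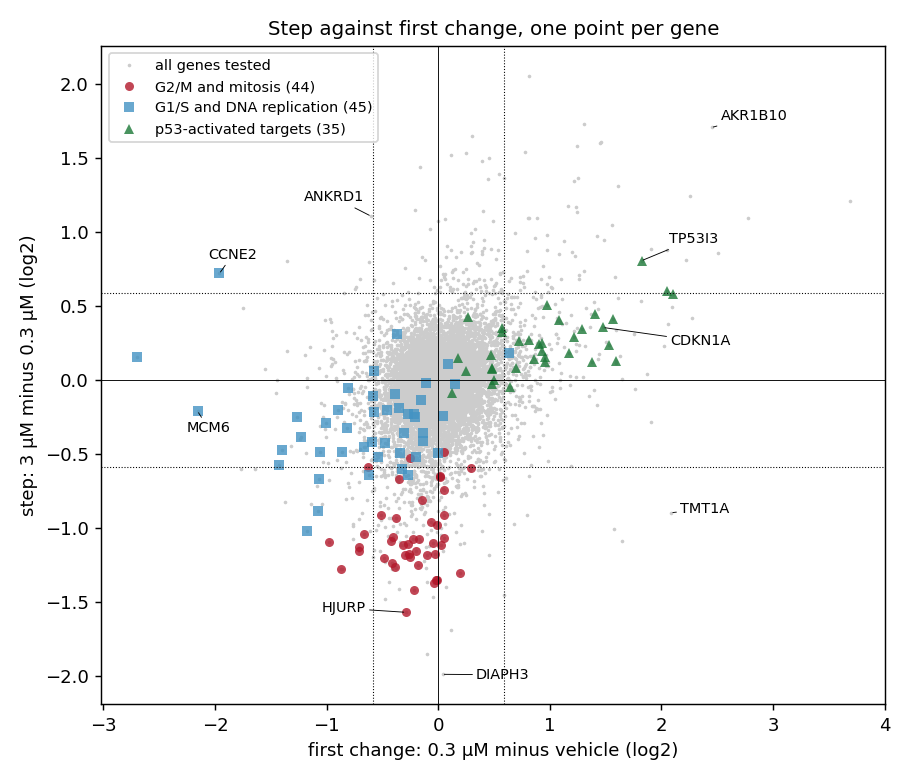
Each point is 1 of the 11714 genes, with the change of 0.3 µM minus vehicle (log2) across and the step of 3 µM minus 0.3 µM (log2) up the page. Dotted lines mark 1.5-fold. The 44 G2/M genes all lie below 0 in the step (median -1.10) and have a median of -0.22 in the first change, while the p53 targets lie to the right with small steps. The axes share the 0.3 µM arrays.

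Genes of G2/M and mitosis, the kinases, motors and kinetochore proteins that build and run the spindle, fell together in the step. Of 44 genes on the list, all measured, 42 fell, none rose, and the median step was -1.10 (range -1.57 to -0.48), against a median of -0.00 for all genes tested. The other members were MAD2L1 at -0.53 and PTTG1 at -0.48, under the fold limit. At 0.3 µM against vehicle only 6 of the 44 were lower (background 1.85%) and the median was -0.22. The difference between the step and the first change was tested in the same fit, a test added after the data were seen, and 31 of the 44 passed it with the step more negative. Of all genes 7.85% passed it in either direction and 5.44% in this one. Without number 3, 39 of the 44 fell, and with number 2 kept, 38 did.

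The promoters of the largest falls on the list, and of CCNB1, are shown because G2/M promoters are known for pairing a cell cycle homology region with CCAAT boxes. Each runs 5' to 3' from 250 bases before the RefSeq gene start to 50 after it (GRCh38.p14), and capitals mark TTTGAA or CCAAT on either strand. UBE2C, among the 4 largest falls, has no entry in the promoter table. HJURP lies at chr2:233854486-233854785 on the minus strand, ASPM at chr1:197146620-197146919 on the minus strand, KIF4A at chrX:70289854-70290153 on the plus strand and CCNB1 at chr5:69166900-69167199 on the plus strand.
HJURP: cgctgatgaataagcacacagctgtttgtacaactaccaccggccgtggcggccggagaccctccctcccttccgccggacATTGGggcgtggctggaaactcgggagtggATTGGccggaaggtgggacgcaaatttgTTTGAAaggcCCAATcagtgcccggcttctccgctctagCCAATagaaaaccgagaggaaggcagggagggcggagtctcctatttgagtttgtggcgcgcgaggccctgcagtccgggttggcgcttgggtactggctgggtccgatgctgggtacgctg
ASPM: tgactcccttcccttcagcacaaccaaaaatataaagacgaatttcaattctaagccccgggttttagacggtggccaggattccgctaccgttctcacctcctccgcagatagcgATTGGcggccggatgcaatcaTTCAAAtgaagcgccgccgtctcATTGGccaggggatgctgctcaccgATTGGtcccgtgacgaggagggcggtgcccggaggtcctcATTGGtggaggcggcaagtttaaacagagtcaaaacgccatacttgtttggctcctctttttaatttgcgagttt
KIF4A: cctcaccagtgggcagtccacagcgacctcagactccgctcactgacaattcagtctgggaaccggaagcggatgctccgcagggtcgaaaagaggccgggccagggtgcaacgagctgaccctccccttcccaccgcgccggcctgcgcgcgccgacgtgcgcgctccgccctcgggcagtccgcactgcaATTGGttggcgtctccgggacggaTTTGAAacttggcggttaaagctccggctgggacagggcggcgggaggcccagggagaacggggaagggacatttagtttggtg
CCNB1: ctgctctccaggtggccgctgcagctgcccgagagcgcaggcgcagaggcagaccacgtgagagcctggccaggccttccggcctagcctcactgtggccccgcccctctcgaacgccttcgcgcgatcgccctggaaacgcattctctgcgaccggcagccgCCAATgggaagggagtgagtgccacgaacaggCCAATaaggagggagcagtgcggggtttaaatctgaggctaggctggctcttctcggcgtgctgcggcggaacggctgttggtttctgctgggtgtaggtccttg

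HJURP, ASPM and KIF4A each held 1 TTTGAA, with 4 CCAAT in HJURP, 4 in ASPM and 1 in KIF4A. CCNB1 held 2 CCAAT and no TTTGAA in this window. Of the 38 list genes with a promoter in the table, 26 held TTTGAA (68.4%), 27 held CCAAT (71.1%) and 20 held both (52.6%). Among all 9650 tested genes with a promoter the shares were 9.94%, 36.9% and 4.19%. Of the 285 genes lowered in the step with a promoter, 94 held TTTGAA (33.0%). Of the 132 raised, 15 did (11.4%). Motif matches describe the letters in these windows and were not tested.

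HJURP, the chaperone that loads centromeric histone CENPA, had 7.51, 6.19, 6.56, 7.45 and 7.27 in the 3 µM arrays (numbers 1, 3, 4, 5 and 6), against 8.92, 8.22, 8.44, 8.59 and 8.65 in the 0.3 µM arrays. Every 3 µM array lay below every 0.3 µM array, and the step was -1.57 ± 0.15 (SE, adjusted p 1.49e-10). CCNB1, the cyclin that brings cells into mitosis, had 10.16, 8.90, 9.55, 10.19 and 10.19 at 3 µM, against 11.21, 10.58, 10.90, 11.03 and 11.06 at 0.3 µM. Number 3 was the lowest array of CCNB1 at both doses, and the 2 doses did not overlap. Its step was -1.16 ± 0.14 (adjusted p 2.48e-08), after a first change of -0.20 that was not called.

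ASPM, a spindle pole protein, averaged 9.01 ± 0.47 at 3 µM and 10.43 ± 0.27 at 0.3 µM (SD, n = 5 each). KIF4A, a chromosome-bound kinesin, averaged 7.22 ± 0.40 at 3 µM and 8.59 ± 0.33 at 0.3 µM. UBE2C, the ubiquitin-conjugating enzyme of the anaphase-promoting complex, averaged 9.70 ± 0.51 at 3 µM and 11.05 ± 0.14 at 0.3 µM. None of the 3 had changed at 0.3 µM against vehicle, where their differences were -0.21, -0.04 and -0.02. The mitotic kinases followed: AURKA had a step of -1.35, PLK1 of -1.18 and BUB1 of -1.25, and CDK1, the partner of cyclin B, of -0.59. CDK1 lay only just past the fold limit. FOXM1, a transcription factor of the G2/M programme, had a step of -1.09.

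**Figure D2:**
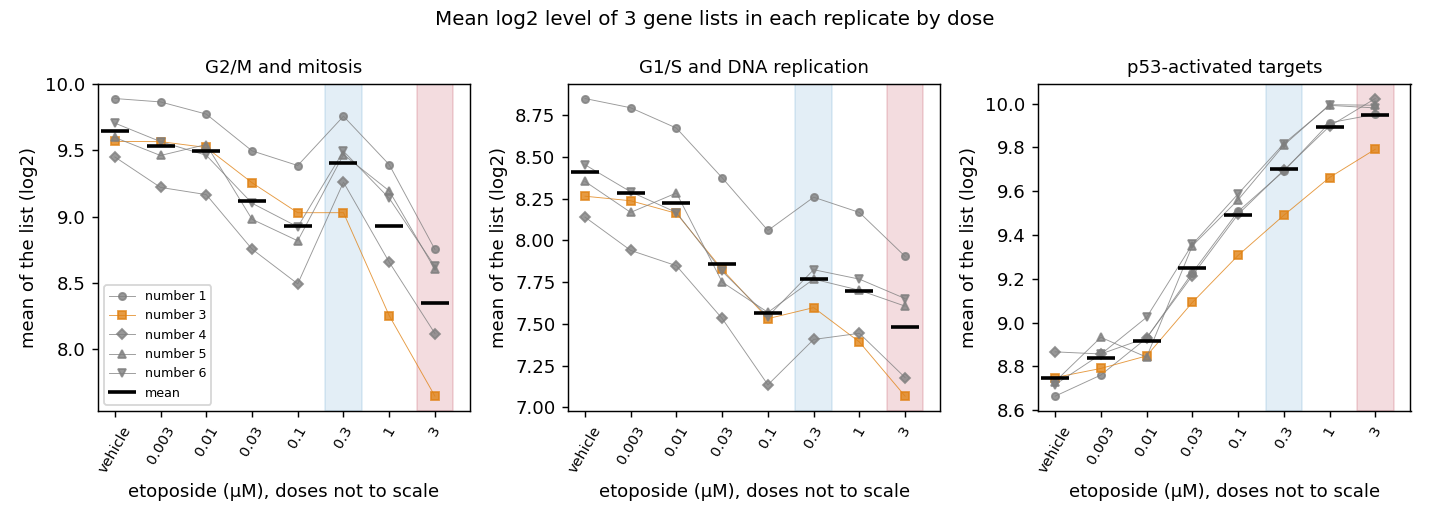
Each panel gives the mean log2 level of a list in each replicate against the etoposide dose, from vehicle to 3 µM, with lines joining arrays of 1 number, number 3 in orange and black bars for the mean over 5 replicates. The shaded doses are 0.3 µM (blue) and 3 µM (red). The G2/M mean is 8.93 at 0.1 µM, 9.40 at 0.3 µM and 8.35 at 3 µM.

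Along the doses the G2/M list did not fall steadily. Its mean was 9.64 ± 0.17 in vehicle, then 9.12 ± 0.28 (0.03 µM), 8.93 ± 0.32 (0.1 µM), 9.40 ± 0.27 (0.3 µM), 8.93 ± 0.46 (1 µM) and 8.35 ± 0.46 (3 µM; SD, n = 5 each). The list was thus higher at 0.3 µM than at 0.1 µM in the means, and 0.3 µM is the dose the step is measured from. Against 0.1 µM, in fits added after the data were seen, 10 of the 44 were higher at 0.3 µM (background 0.802%) and none was lower. At 3 µM, 23 of the 44 were lower than at 0.1 µM, with a median of -0.62, against -1.10 from 0.3 µM. Of all genes 4.96% were called between 3 and 0.1 µM, 2.47% higher and 2.49% lower. HJURP differed by 0.59 between 0.3 and 0.1 µM (adjusted p 0.00768) and by -0.98 between 3 and 0.1 µM (adjusted p 1.65e-06). The number 3 array at 0.3 µM had a list mean of 9.03, equal to its 9.03 at 0.1 µM, while the other numbers were higher at 0.3 µM. In the step itself, the pair difference of the list mean was -1.38 in number 3, the most negative, -1.14 in number 4 and -0.87 in number 6, and all 5 pairs fell. Between 1 and 0.3 µM, 10 members fell (background 0.205%), and between 3 and 1 µM 26 did (background 0.743%).

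The 3 largest falls of the step, in DIAPH3, CEP128 and CIT, were in long genes outside the list. DIAPH3, a formin that nucleates actin filaments and serves cell division, had 7.98, 7.69, 7.54, 8.01 and 7.74 at 3 µM, against 9.99, 9.51, 9.67, 9.89 and 9.83 at 0.3 µM. The doses did not overlap, and the first change was 0.04 (mean 9.78 ± 0.19 at 0.3 µM and 9.74 ± 0.04 in vehicle). Its step was -1.99 ± 0.063 (SE, adjusted p 1.14e-24), and its gene span in RefSeq is 498 kb. CEP128, a centriole appendage protein with a span of 483 kb, had 5.79, 5.24, 5.24, 5.20 and 5.18 at 3 µM, against 7.44, 6.96, 6.90, 7.29 and 7.31 at 0.3 µM. Number 1 was the highest array of CEP128 at 3 µM and still lay below all 0.3 µM arrays. Its step was -1.85 ± 0.095, and its 4 kept probe sets had steps between -1.85 and -0.54, 2 of them called.

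CIT, the citron kinase of cytokinesis (192 kb), averaged 4.69 ± 0.31 at 3 µM and 6.39 ± 0.23 at 0.3 µM. SCLT1, another centriole appendage protein (220 kb), averaged 6.78 ± 0.13 at 3 µM and 8.18 ± 0.14 at 0.3 µM. SH3RF3, a ubiquitin ligase family member (375 kb), averaged 5.06 ± 0.27 at 3 µM and 6.42 ± 0.12 at 0.3 µM. For these 3 genes the first change was 0.12, 0.07 and -0.10, none of it called, and the arrays of the 2 doses did not overlap. SCLT1 has 3 kept probe sets with steps between -1.40 and -0.33, 2 of them called. PSRC1, a spindle protein with a span of only 3.59 kb, had a step of -1.48 ± 0.11. TMEM71 and SCARA3, a scavenger receptor, had steps of -1.46 and -1.41 and completed the 12 largest falls with NLGN1, described below with the genes that went back. SCARA3 has 3 kept probe sets with steps between -1.41 and -0.38, 1 of them called.

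**Figure D3:**
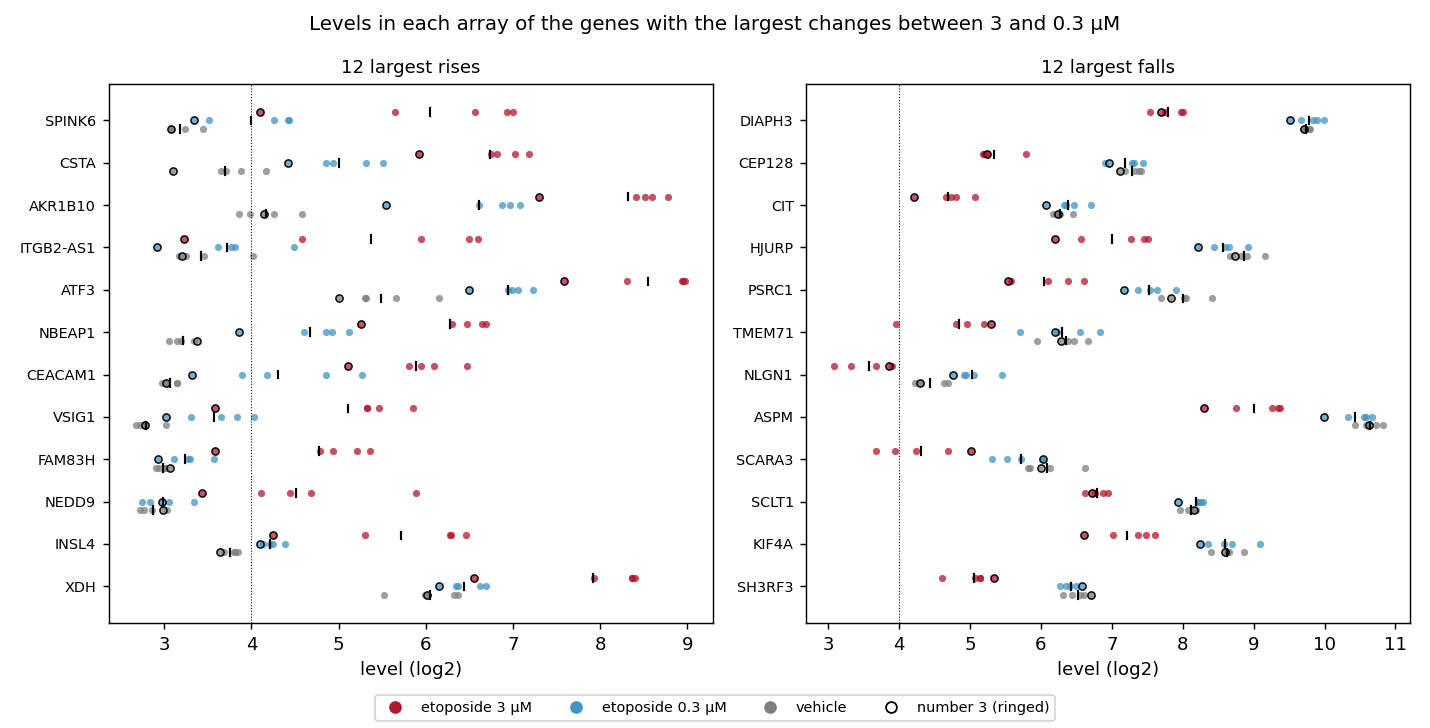
Levels (log2) in each array of the 12 largest rises (left) and falls (right), with 3 µM in red, 0.3 µM in blue, vehicle in grey, number 3 ringed and short bars for means. The dotted line marks a level of 4. All 12 rises are lowest at 3 µM in number 3, and in the 12 falls the doses do not overlap.

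Length was then compared over all genes with a RefSeq span. A span of 320 kb or more was held by 380 tested genes, and 61 of them fell in the step (16.1%), against 32 of 2502 genes under 10 kb (1.28%) and 2.89% of all genes. The share rose through the classes between, with 1.80% at 10 to 20 kb, 1.96% at 20 to 40 kb, 2.92% at 40 to 80 kb, 3.33% at 80 to 160 kb and 6.05% at 160 to 320 kb. Rises were most frequent in short genes: 2.20% of the shortest class and 1.80% at 10 to 20 kb were higher. From 20 kb up the share lay between 1.01% and 1.32%, with 1.32% in the longest class. At 0.3 µM against vehicle 2.63% of the longest class and 2.12% of the shortest were lower, and the class medians were 0.02 and 0.03.

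The median step of the longest class was -0.30, against 0.03 for genes under 10 kb. By pair the longest class had medians of -0.33, -0.15, -0.21, -0.41 and -0.42 in numbers 1, 3, 4, 5 and 6, against 0.06, -0.09, 0.06, 0.04 and 0.11 for genes under 10 kb. The longest class was below the shortest in each of the 5 pairs, and number 3 showed the smallest gap. Between 1 and 0.3 µM its median was -0.14, and between 3 and 1 µM it was -0.15. The median level at 0.3 µM was 7.34 in the longest class, 7.31 in the shortest and up to 8.02 in the classes between. In the longest class 17.1% of the 152 genes with a level over the median of all genes fell, and 15.4% of the 228 below it. Genes share pathways and overlap in the genome, so these shares are descriptions and carry no test.

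The 61 long genes that fell held no member of the G2/M list. None of the 380 tested genes of this span is on that list, so no overlap was possible. At 0.3 µM 3 of them had been lower and 2 higher than in vehicle, and their median first change was -0.05. Beyond those above, NAV2, a neuron navigator protein, PTPRG and PTPRD, receptor tyrosine phosphatases, NTM, a cell adhesion protein, and DPYD, the enzyme that starts pyrimidine breakdown, were picked after their values were seen. NAV2 (776 kb) averaged 7.74 at 3 µM and 8.84 at 0.3 µM, with a step of -1.10. PTPRD spans 2299 kb and had a step of -0.79, and PTPRG spans 736 kb and had a step of -0.86. The step was -0.73 for NTM (966 kb) and -0.76 for DPYD (843 kb). Against this, NRG1, a growth factor of 1135 kb, was higher by 0.72 and HDAC9, a histone deacetylase of 916 kb, by 0.67. Of the 54 fallen long genes with a promoter in the table, 5 held TTTGAA (9.26%) and none held TTTGAA with CCAAT. Among all tested genes with a promoter the shares were 9.94% and 4.19%. The shorter fallen genes, which include those of the G2/M list, held TTTGAA in 89 of 231 (38.5%) and both in 59 of 231 (25.5%). The median span was 73.5 kb for all genes that fell, 92.0 kb for those outside the G2/M list, 28.2 kb for the G2/M list, 18.8 kb for those that rose and 30.5 kb for all genes tested.

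**Figure D4:**
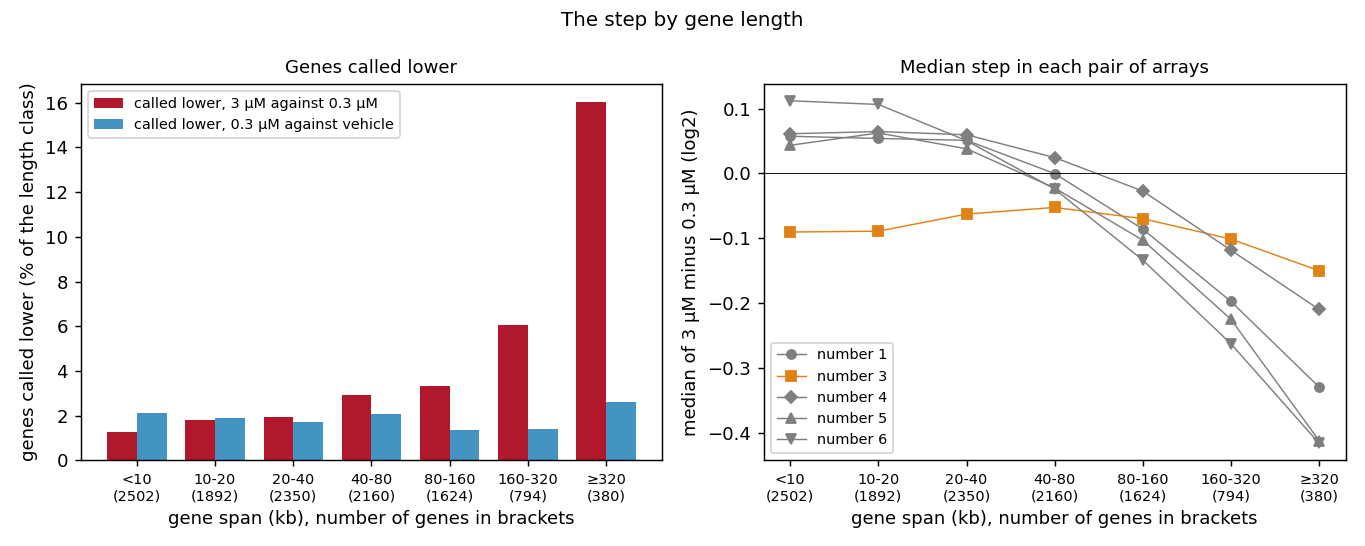
Left, the share of genes in each RefSeq span class that were called lower at 3 µM against 0.3 µM (red) and at 0.3 µM against vehicle (blue). Right, the median step (log2) of each class in each of the 5 numbered pairs, with number 3 in orange. The longest class reaches 16.1% in the step and 2.63% in the first change.

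The largest rise was SPINK6, an epidermal inhibitor of serine proteases. It had 6.56, 4.10, 5.64, 6.93 and 7.00 at 3 µM, against 4.44, 3.35, 3.52, 4.42 and 4.26 at 0.3 µM. Number 3 at 3 µM lay among the 0.3 µM arrays, so the doses overlapped. Each number rose in its own pair, but the choice of the 12 largest rises required this. The step was 2.06 ± 0.26 (SE, adjusted p 4.68e-08). CSTA, cystatin A of the cornified envelope, had 6.81, 5.93, 7.18, 6.74 and 7.03 at 3 µM, against 4.85, 4.42, 4.94, 5.52 and 5.31 at 0.3 µM, with no overlap. Its step was 1.73 ± 0.14, and it had already risen by 1.30 at 0.3 µM against vehicle. The vehicle mean of CSTA was 3.70, under the limit of 4, so the size of that first rise is uncertain. In all 12 of the largest rises number 3 was the lowest of the 3 µM arrays, and in 11 of them the lowest at 0.3 µM.

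The epithelial and squamous list had 9 measured genes of 25, and 3 rose in the step (background 1.46%) with a median of 0.46. Besides CSTA these were NECTIN4, an adhesion molecule, and SFN (14-3-3 sigma), a p53 target of epithelia that holds back entry into mitosis. NECTIN4 averaged 9.11 ± 0.32 at 3 µM and 8.02 ± 0.65 at 0.3 µM, and SFN 8.13 ± 0.67 at 3 µM and 6.98 ± 0.57 at 0.3 µM. The keratins KRT8, KRT18 and KRT7 were not called, with steps of 0.15, -0.13 and 0.17. Defining epithelial genes stayed under the limit of 4 at both doses: CDH1 had means of 2.83 at 3 µM and 2.82 at 0.3 µM, and EPCAM of 3.06 and 2.92. Of the 23 epithelial genes on the array, 9 had a mean of at least 4 at 3 µM, 9 at 0.3 µM and 8 in vehicle. CEACAM1, an adhesion molecule (1.58), and FAM83H, a keratin-binding protein (1.54), were also among the 12 largest rises. FAM83H averaged 4.77 at 3 µM and 3.24 at 0.3 µM, below the limit, so the size of its rise is uncertain. The same holds for NEDD9, a focal adhesion scaffold (2.99 at 0.3 µM), VSIG1, an immunoglobulin-domain adhesion protein (3.57), the antisense transcript ITGB2-AS1 (3.72) and SPINK6 (3.99). With no filter on low values another NEDD9 probe set was chosen, at 0.24 and not called. In all, 22 of the 171 raised genes had a mean under 4 at 0.3 µM.

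AKR1B10, an aldo-keto reductase that reduces retinal and other carbonyls, had 8.41, 7.30, 8.60, 8.78 and 8.52 at 3 µM, against 6.88, 5.55, 6.61, 6.97 and 7.08 at 0.3 µM. Each 3 µM array was above all 0.3 µM arrays. The step was 1.71 ± 0.22 (adjusted p 1.14e-07) after a first change of 2.45. Its near-identical neighbour AKR1B15 could share its probes. No other of the 20 measured genes of the NRF2 and aldo-keto reductase list was called, against 4.35% of all genes. The list's median was -0.06. XDH, the xanthine oxidase of purine breakdown, averaged 7.92 ± 0.79 at 3 µM and 6.44 ± 0.22 at 0.3 µM, a step of 1.48 after a first change of 0.39 that was not called. INSL4, an insulin-like peptide, averaged 5.72 ± 0.94 at 3 µM and 4.22 ± 0.11 at 0.3 µM, and the transcribed pseudogene NBEAP1 6.27 ± 0.59 at 3 µM and 4.67 ± 0.49 at 0.3 µM.

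ATF3, a stress-induced transcription factor, had 8.94, 7.58, 8.31, 8.95 and 8.98 at 3 µM, against 7.24, 6.49, 6.94, 7.06 and 6.99 at 0.3 µM. The doses did not overlap, and the step of 1.61 ± 0.15 was about the size of the first change, 1.46. It was the only one of 21 AP-1 and immediate early genes called in the step, against 4.35% of all genes. TSPAN10, a tetraspanin, LINC01588, a long non-coding RNA, and STON2, an endocytic adaptor, went on rising as well, with steps of 1.37, 1.34 and 1.31 after first changes of 1.26, 1.22 and 1.62. For AKR1B10, CSTA, ATF3, NBEAP1, CEACAM1, TSPAN10, LINC01588 and STON2, the 8 largest that went further from a call at 0.3 µM, the test of the step against the first change missed the threshold (smallest adjusted p 0.16).

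The p53-activated targets rose less in the step than in the first change. Of 35 measured genes, 24 had risen at 0.3 µM against vehicle (background 3.24%) with a median of 0.93, and 2 rose in the step (background 1.46%) with a median of 0.24 and a range of -0.09 to 0.81. With no fold limit 21 of the 35 were higher in the step by adjusted p, 32 lay above 0, and 11 were called higher at 3 µM than at 0.1 µM (background 2.47%). For 21 of the 35 the step was smaller than the first change by the added test (background 5.44%), and for none was it larger. CDKN1A, which encodes p21, had 10.92, 10.61, 10.72, 10.64 and 10.81 at 3 µM, against 10.46, 10.36, 10.29, 10.36 and 10.46 at 0.3 µM. The arrays did not overlap, yet the step of 0.36 ± 0.077 (adjusted p 0.00036) was under the 1.5-fold limit, after a first change of 1.48. MDM2, the ubiquitin ligase that degrades p53, had a step of 0.18 and GDF15, a secreted stress cytokine, of 0.16 (adjusted p 0.0879). They had risen by 1.17 and 0.95 at 0.3 µM. MDM2 has 7 kept probe sets with steps from 0.05 to 1.61, 3 of them called higher, so the value depends on the probe set, and the one with the highest mean is given.

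The 2 members called were TP53I3, a quinone oxidoreductase, and ACER2, a ceramidase of the Golgi. SFN, named above as a p53 target, was not on the list. Its 2 kept probe sets had steps of 1.14 and 2.13, both called. TP53I3 averaged 11.49 ± 0.26 at 3 µM and 10.68 ± 0.29 at 0.3 µM, with no overlap, and its step of 0.81 followed a first change of 1.82. ACER2 had a step of 0.60, just past the limit, and of 0.52 without number 3, which is under it. The list mean rose in each pair, by 0.26, 0.30, 0.33, 0.18 and 0.16 in numbers 1, 3, 4, 5 and 6. Most of it lay between 1 and 0.3 µM, where the pair differences were 0.17 to 0.22, against -0.01 to 0.13 between 3 and 1 µM. TREM2, a receptor of myeloid cells and no member of the list, also moved less in the step. It averaged 8.25 ± 0.46 at 3 µM and 7.04 ± 0.64 at 0.3 µM, after 3.35 in vehicle. Its step of 1.21 was smaller than its first change of 3.69 (difference -2.48, adjusted p 1.3e-06). The vehicle mean lay under the limit of 4, so the sizes of the first change and of this difference are uncertain. Of the 17 blood cell genes on the array, TREM2 among them, 4 had a mean of at least 4 at 3 µM, 4 at 0.3 µM and 3 in vehicle. CD68 averaged 6.76 at 3 µM and 6.57 at 0.3 µM, and CD3D 4.48 and 4.40. PTPRC and TYROBP, the signalling partner of TREM2, stayed under 4 at both doses.

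Genes of G1/S and DNA replication had more calls at 0.3 µM against vehicle than in the step. Of 45 measured, 19 had fallen at 0.3 µM (background 1.85%) with a median of -0.54. In the step 6 fell (background 2.89%) and 1 rose (background 1.46%), with a median of -0.29. With no fold limit 28 were lower and 3 higher in the step by adjusted p. Without number 3 the falls dropped to 2. For 12 of the 45 the step was less negative than the first change by the added test (background 2.42%), and for none more. MCM6, a subunit of the replicative helicase, had 8.75, 8.12, 7.74, 8.31 and 8.32 at 3 µM, against 8.89, 8.84, 8.06, 8.17 and 8.32 at 0.3 µM. The arrays overlapped, and the step of -0.21 ± 0.093 was not called (adjusted p 0.0743), after a first change of -2.16. Along the doses MCM6 differed by -0.79 between 0.3 and 0.1 µM (adjusted p 1.14e-06), but the list as a whole did not follow it: 3 members were higher at 0.3 µM (background 0.802%) and 2 lower (background 0.102%), with a median of 0.30. The list mean was 7.57 ± 0.33 (0.1 µM), 7.77 ± 0.32 (0.3 µM) and 7.48 ± 0.35 (3 µM; SD, n = 5 each).

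The MCM6 promoter is given for comparison with the G2/M promoters, at chr2:135876394-135876693 on the minus strand, with matches to TTTNNCGC, an E2F-type motif, in capitals. Matches on the 2 strands overlap in each capital run, which gives 4 matches. The window also held 2 CCAAT, left in lower case here.
MCM6: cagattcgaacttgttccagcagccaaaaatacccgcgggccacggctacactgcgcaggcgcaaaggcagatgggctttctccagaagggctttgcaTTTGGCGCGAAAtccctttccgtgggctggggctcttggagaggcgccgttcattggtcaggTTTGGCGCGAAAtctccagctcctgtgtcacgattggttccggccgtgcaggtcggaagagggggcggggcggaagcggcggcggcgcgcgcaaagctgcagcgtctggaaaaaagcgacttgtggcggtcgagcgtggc
Of the 37 replication genes with a promoter, 24 held TTTNNCGC (64.9%) and 1 held TTTGAA (2.70%), against 5 (13.2%) and 26 (68.4%) of the 38 G2/M genes. All tested genes with a promoter held TTTNNCGC in 10.7%. CCAAT was common to both lists: 21 of the 37 replication genes held it (56.8%) and 27 of the 38 G2/M genes (71.1%), against 36.9% of all tested genes with a promoter.

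The 6 that fell were POLA1, E2F8, UHRF1, RFC4, GINS1 and RFC5. POLA1, the catalytic subunit of the primase-bound polymerase (303 kb), averaged 5.19 ± 0.33 at 3 µM and 6.21 ± 0.34 at 0.3 µM, and its step of -1.02 followed a first change of -1.18. E2F8, a repressor of E2F targets, had a step of -0.88 after -1.08. The fall of UHRF1, a maintenance factor of DNA methylation, was -0.67 and lost its call without the replicate block (adjusted p 0.17) or without number 3 (-0.53). CCNE2, a cyclin of S phase entry, went the other way. It averaged 7.06 ± 0.82 at 3 µM, 6.34 ± 0.63 at 0.3 µM and 8.30 ± 0.47 in vehicle, rose in 4 of 5 pairs, and its step of 0.72 was not called without the block (adjusted p 0.18) or without number 5 (0.503). CCNE1 differed by 0.31, under the limit. Of 18 genes of the E2F and retinoblastoma family, 3 fell (background 2.89%): E2F8, RBL1 (p107) at -0.73, and LIN9, a MuvB subunit, at -0.67. RBL1 missed the threshold without the block (adjusted p 0.055). With the mean of its 2 kept probe sets it was at -0.52, under the fold limit.

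Among repair genes, 6 of 24 of the homologous recombination and Fanconi list fell (background 2.89%) and none rose, with a median of -0.31. The count was 3 without the number 3 array at 3 µM and 16 with no fold limit. This list averaged 7.09 ± 0.27 in the 0.3 µM arrays, from which the step is measured, and 7.39 ± 0.20 in vehicle (SD, n = 5 each). With 0.1 µM etoposide it had already averaged 6.69 ± 0.27, close to the 6.71 ± 0.30 of the 3 µM arrays. The step thus returned the list mean to about its 0.1 µM level, and a fall below that level was not tested for this list. BRIP1, a helicase that binds BRCA1, averaged 5.87 ± 0.61 at 3 µM and 7.14 ± 0.48 at 0.3 µM, a step of -1.27. BARD1, the partner of BRCA1, had a step of -1.02, BLM, a helicase, of -0.82 and RAD54B, a recombination motor, of -0.69. Without number 3 RAD54B was at -0.54 and lost its call. With the mean of its 2 kept probe sets it was at -0.40, also not called. The other kept probe set of BRIP1 was at -0.56 and not called. BARD1 has 3, with steps between -1.02 and -0.57, 2 of them called. Of 27 genes of damage signalling and end joining, 2 fell, against 2.89% of all genes, and leaving out 1 number or array gave 1 (3 µM, number 1) to 4 (number 6, or number 4 or 6 at 3 µM). They were POLQ, the polymerase of microhomology end joining, at -1.16, and CHEK1, the checkpoint kinase under ATR, at -0.64. The other kept probe set of POLQ was at -0.29 and not called. CHEK1 has 4 kept probe sets with steps between -0.80 and -0.04, 3 of them called. With the mean of its probe sets CHEK1 was at -0.52 and not called. Without number 1 CHEK1 was at -0.58, just under the fold limit. The damage signalling and end joining list also stood higher in the 0.3 µM arrays (mean 8.26 ± 0.09) than with 0.1 µM etoposide (8.10 ± 0.08). Its mean in the 3 µM arrays was 8.03 ± 0.08. For the targets of etoposide the members differed. TOP2A, the topoisomerase II of dividing cells, had 11.13, 10.63, 11.11, 11.37 and 10.86 at 3 µM, against 12.13, 10.70, 12.07, 12.10 and 11.80 at 0.3 µM. Number 3 was low at both doses and hardly moved, so the arrays overlapped, and the step was -0.74 ± 0.13 (adjusted p 1.52e-05). TOP2B, the form also used by resting cells, differed by -0.21 ± 0.044 and was not called. Its arrays did not overlap (adjusted p 0.000209).

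Of 16 nuclear lamina and senescence markers, 3 fell (background 2.89%). The median was -0.32, with steps from -1.27 to 0.36. LMNB1, lamin B1, which is lost in senescence, averaged 7.94 ± 0.50 at 3 µM and 9.22 ± 0.47 at 0.3 µM, and its step of -1.27 followed a first change of -0.87. HMGB2 and HMGB3, chromatin proteins of the high mobility group, had steps of -0.84 and -0.59, with no overlap in either. HMGB3 lay just past the fold limit and was under it without number 5 (-0.57) or 6 (-0.58). Histone genes went up in 5 of 18 cases (background 1.46%) and down in 1 (background 2.89%). H2BC4 averaged 8.48 ± 0.15 at 3 µM and 7.38 ± 0.29 at 0.3 µM, with no overlap, and H2AC6 and H1-2 rose by 0.72 and 0.71. The other 2 rises were H2BC21 (0.71) and H2BC5 (0.66), and the fall was H2AX, the histone marked at DNA breaks, at -0.82. The other kept probe set of H2AX was at -0.50 and not called. Replicative histone genes are near-identical copies whose probes may share signal, so their values are uncertain. The kit also primes at 3' tails, while most replicative histone transcripts carry none.

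In the ATF4 integrated stress response, which raises amino acid supply under stress, 12 of 27 genes had fallen at 0.3 µM (background 1.85%). In the step 2 rose (background 1.46%) and 1 fell (background 2.89%), with a median of 0.06. For 14 of the 27 the step was higher than the first change by the added test (background 2.42%). DDIT3, the pro-apoptotic factor CHOP, averaged 7.78 ± 0.12 at 3 µM and 7.09 ± 0.50 at 0.3 µM, a step of 0.69, and of 0.51, under the limit, without number 1. NUPR1, a chromatin-bound stress protein, had a step of 0.77 and SLC1A4, a neutral amino acid transporter, of -0.60. SLC1A4 averaged 3.95 at 3 µM and 4.55 at 0.3 µM, close to the limit of 4. Without the block neither passed (adjusted p 0.05 and 0.17). SLC1A4 was not called without number 3 (-0.42) or 4 (-0.56) either, nor with the mean of its probe sets (-0.42). ASNS, asparagine synthetase, had a step of 0.49, under the limit, after a first change of -1.75.

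Of 22 interferon-stimulated genes 2 rose, ISG15, a ubiquitin-like modifier, and IFI6, a mitochondrial protein. ISG15 had 9.22, 8.13, 8.71, 9.25 and 9.20 at 3 µM, against 8.09, 7.81, 7.57, 7.93 and 8.00 at 0.3 µM, with no overlap and a step of 1.02 ± 0.11. IFI6 had a step of 0.88. The list's median was 0.17, and 1.46% of all genes rose. Other lists had a single call each, which for lists of these sizes lies near the 4.35% of all genes called in either direction. TNFAIP3, the A20 feedback inhibitor of NF-kB, was at 0.74 (1 of 19) and CD274, the checkpoint ligand PD-L1, at 0.63 (1 of 17). MMP3, a matrix metalloproteinase, was at 0.87 (1 of 28) and HSPB8, a small heat shock protein, at 0.67 (1 of 23). SNAI2, a repressor of epithelial genes, was at 0.62 (1 of 12). The call of CD274 was lost without the block (adjusted p 0.47), and that of HSPB8 as well (adjusted p 0.069). Leaving out 1 number also took 3 of these under the fold limit: CD274 without number 5 (0.46) or 6 (0.53), SNAI2 without number 5 (0.58) or 6 (0.55), and HSPB8 without number 6 (0.57). SNAI2 belongs to the mesenchymal markers, of which 12 of 16 had a mean of at least 4 at 3 µM, at 0.3 µM and in vehicle, VIM among them at 13.14 at 3 µM and 13.21 at 0.3 µM. SNAI2 was the only call in its list, and 10 of the 12 measured members lay below 0 in the step, the median was -0.19, and the list mean fell in all 5 pairs, but none of the 10 passed the fold limit. NCAM1, listed as a blood marker of natural killer cells and 317 kb long, had a step of -1.01. Its 4 kept probe sets had steps between -1.32 and -0.42, 2 of them called. No gene was called in the step among 22 apoptosis regulators, 19 cholesterol and fatty acid genes, 22 hypoxia and glycolysis genes, 23 lysosome and autophagy genes, 24 ribosome biogenesis genes or 11 housekeeping controls, whose medians were 0.08, 0.04, -0.14, 0.11, 0.10 and -0.01. The endothelial, neural and muscle markers, of which 3 were measured, had no call either. Of all genes 4.35% were called in either direction, so lists of these sizes without a call lie near that share. Under the alternatives up to 13 hypoxia and glycolysis genes were called lower and up to 1 higher. For ribosome biogenesis up to 10 were called higher and up to 2 lower.

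The 16 genes that went back were 8 that had been higher at 0.3 µM and 8 that had been lower. NLGN1, a synaptic adhesion protein (898 kb), had 3.33, 3.86, 3.90, 3.67 and 3.08 at 3 µM, against 4.94, 4.76, 5.45, 5.05 and 4.91 at 0.3 µM and 4.22, 4.29, 4.31, 4.63 and 4.69 in vehicle. It was the only gene of the 16 called on the other side of vehicle at 3 µM (-0.86), and at 3 µM it is below the measured limit. TMT1A, a thiol methyltransferase, averaged 5.90 ± 0.36 at 3 µM, 6.79 ± 0.62 at 0.3 µM and 4.71 ± 0.40 in vehicle. It stayed called above vehicle (1.19). BGLAP, osteocalcin, averaged 5.75 ± 0.28 at 3 µM, 6.76 ± 0.44 at 0.3 µM and 5.18 ± 0.32 in vehicle, and its 2 doses did not overlap. NEURL1B, a ubiquitin ligase of Notch ligands, had a step of -1.09 after 1.65. ELMO1, an activator of Rac1 (596 kb), had a step of -0.91 after 0.80. GMFG, a regulator of actin branching, had 4.94, 6.98, 6.06, 5.34 and 5.44 at 3 µM, against 5.90, 7.56, 7.08, 6.76 and 6.32 at 0.3 µM. The spread between numbers was wide and the doses overlapped. Each pair fell, but the choice of the 8 largest that went back required this. The step of GMFG was -0.97 ± 0.11. It was not called without the block (adjusted p 0.14).

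The genes going back upwards were led by ANKRD1, a muscle and YAP-responsive ankyrin protein, with a step of 1.11 after -0.60. ANKRD1 averaged 7.42 ± 0.84 at 3 µM, 6.31 ± 0.64 at 0.3 µM and 6.91 ± 0.45 in vehicle. ESM1, endocan of endothelium, averaged 7.24 ± 0.43 at 3 µM, 6.44 ± 0.47 at 0.3 µM and 7.79 ± 0.55 in vehicle, and was not called without the block (adjusted p 0.065) or without number 5 (0.58). The rest were CCNE2, CD274, CREB5, SECISBP2, BICD1 and ENTR1 upwards, and PTCHD4 and GSAP downwards. Their steps were between 0.59 and 0.80 upwards, and -0.66 and -0.65 downwards. With number 2 kept, 6 genes went back, and TMT1A (adjusted p 0.1) and ESM1 (adjusted p 0.39) were not among them. Without the replicate block 10 did.

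**Figure D5:**
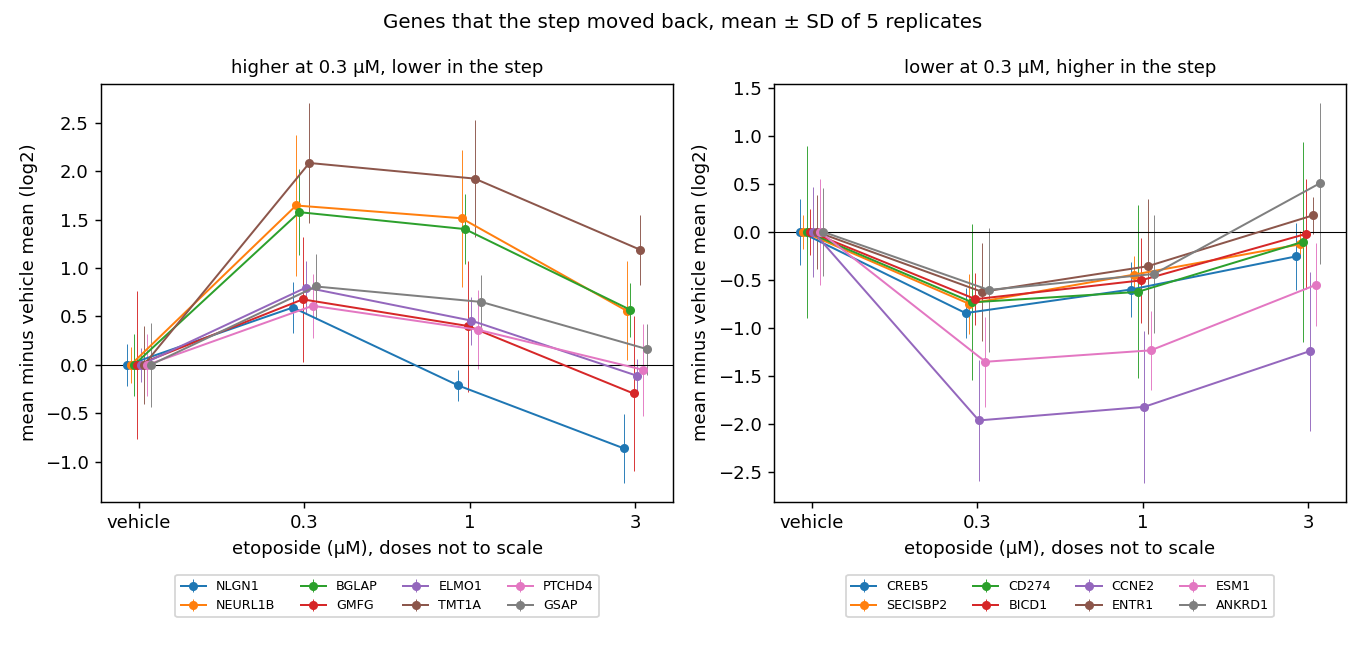
Mean minus the vehicle mean (log2) at vehicle, 0.3, 1 and 3 µM for the 8 genes that were higher at 0.3 µM and fell in the step (left) and the 8 that did the reverse (right), with bars for the SD of 5 replicates. Of these, NLGN1 ends called below vehicle.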

How the data were processed

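The deposited values are log2 signals of 54613 probe sets on 145 Affymetrix arrays, which the authors processed with Partek and GCRMA, per the submitters' processing notes, with no versions given. RNA was labelled with a 3' IVT kit, per the labels' protocols. The genome build is not given in the sources used here. Arrays have no read depth, and the number of arrays limits the precision.

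Probe sets were named from the platform annotation (40914 with 1 symbol, 864 with several, 12835 with none). Those with log2 of at least 4 in at least 5 arrays were kept (25612), and each of 11714 genes was given its probe set with the highest mean. In R 4.3.3, limma 3.58.1 (lmFit, eBayes with a trend) was fitted over the 8 etoposide groups without number 2, 40 replicates after averaging 2 arrays of 1 number, with replicate number as a block. Same-numbered arrays at 3 and 0.3 µM deviated together in every pair (r = 0.32 to 0.79), so the numbers were taken to pair the samples. The mean r between different numbers was -0.13. Deviations were taken from each group's mean, so this value falls below 0 once same-numbered arrays deviate together. Number 6 at 3 µM with number 1 at 0.3 µM also reached 0.32, the r of number 5 with itself. The pairing comes from this check, not from the labels. Adjusted p-values are Benjamini-Hochberg over all genes.

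Named genes were the 12 largest rises and 12 largest falls with all 5 pair differences of 1 sign, the 8 largest that went further from a call at 0.3 µM and the 8 largest that went back. Up to 4 called members of each list and 11 fixed genes, such as CDKN1A and TOP2A, were added whatever their pair differences. Other genes in the text were named after their values were seen. The members and lists were chosen with earlier results of these data known. The test of the step against the first change and the comparisons with 0.1 µM were added after the data were seen. Spans and promoters are RefSeq's (GRCh38.p14). On simulated data with the same design, 38% of genes changed 1.5-fold, 96% changed 2-fold, 100% changed 3-fold and 96% changed 4-fold were called, with 0 false calls. Alternatives covered the block, number 2, the filter, scaling, probe set choice, the call rule and leaving out each replicate number or single array.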

Additional observations from a re-analysis of the deposited data

Results flagged for a closer look

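In 20 of 208 groups of 5 arrays, 1 array stood far from the other 4 by Dixon's test. Chance flags about 1 in 20 groups. Of the 20, 15 were number 3, 8 at 3 µM and 7 at 0.3 µM.

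At 3 µM the number 3 array was low for AKR1B10 (7.30, others 8.41 to 8.78), NBEAP1 (5.26, others 6.30 to 6.69), VSIG1 (3.58, others 5.33 to 5.85), XDH (6.55, others 7.92 to 8.40), LINC01588 (6.33, others 6.96 to 7.08) and HMGB2 (10.65, others 10.99 to 11.12). At 0.3 µM it was low for SCLT1 (7.94, others 8.21 to 8.28), ACER2 (5.48, others 6.31 to 6.47), TOP2A (10.70, others 11.80 to 12.13) and NECTIN4 (6.87, others 8.10 to 8.44).

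List means of number 3 stood apart at both doses for 2 lists. The NRF2 and aldo-keto reductase list was at 9.13 at 3 µM (others 8.83 to 8.91) and 9.12 at 0.3 µM (others 8.80 to 8.88). The cholesterol and fatty acid list was at 7.97 at 3 µM (others 8.47 to 8.62) and 8.09 at 0.3 µM (others 8.46 to 8.59). The lysosome and autophagy list was at 8.66 at 0.3 µM (others 8.28 to 8.37).

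Elsewhere, CEP128 was high in number 1 at 3 µM (5.79, others 5.18 to 5.24), and CCNE2 was high in number 1 at 0.3 µM (7.44, others 5.92 to 6.18). DDIT3 was low in number 5 at 3 µM (7.57, others 7.82 to 7.87). NCAM1 was low in number 6 at 3 µM (6.62, others 7.14 to 7.25) and high in number 1 at 0.3 µM (8.27, others 8.00 to 8.08).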

How the results depend on the processing

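Of 2068 results for named genes under the alternatives, 2001 kept their direction and their side of the threshold, and none reversed. Of the 77 named genes 72 were called, 55 of them under every alternative with a value for that gene. Treat and adjusted p alone were run for counts and not gene by gene, and the filter at log2 6 gave values for 66 of the 77. Calls lost most often were those of SLC1A4 (10 alternatives), HMGB3 (8), CD274 (7), SNAI2 and ACER2 (6 each). Without the replicate block the step had 440 calls, all 440 among the 510, with 15 between 1 and 0.3 µM, 47 between 3 and 1 µM and 10 genes going back. With number 2 kept these last 3 counts were 4, 50 and 6. By adjusted p alone the counts were 4273 in the step, 643 between 1 and 0.3 µM, 1872 between 3 and 1 µM, 5112 at 0.3 µM against vehicle, 7100 at 3 µM against vehicle, 3381 further and 656 back. With limma's treat at 1.2-fold, the step had 651 calls, 448 of them among the 510, with 3 and 43 in its lower and upper parts and 2539 at 3 µM against vehicle. Higher genes made up 33.5% of the step's calls, 24.4% with treat and 43.9% by adjusted p alone. Leaving out in turn each replicate number, or only its 3 µM or only its 0.3 µM array, made 15 settings. They gave 481 to 599 calls in the step (149 to 221 higher, 326 to 381 lower), 421 to 509 further and 12 to 23 back. Between 1 and 0.3 µM they gave 38 to 77, and between 3 and 1 µM 100 to 145. Against vehicle they gave 582 to 709 at 0.3 µM and 1545 to 1797 at 3 µM. The causes were not tested. Signal over background limits rises from levels under 4.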
